A study of Macaca mulatta with 8 samples.

Results

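Regulatory T cells (Tregs) of rhesus macaque blood were set against conventional CD4 T cells, using the cells that the authors' annotation named endoTreg within the CD25high CD127low sort and Tconv within the CD127-positive CD25-negative sort. In all, 8819 of 25397 cells entered, sampled on day 3 and day 20. The endoTreg cells numbered 1301 on day 3, or 38.9% of the 3347 cells of their sort (95% exact binomial interval 37.2 to 40.5%), and 938 on day 20, or 40.03% of 2343 cells (38.0 to 42.1%). The Tconv cells numbered 2960 on day 3, or 97.5% of the 3037 cells of their sort (96.8 to 98.0%), and 3620 on day 20, or 98.4% of 3677 cells (98.0 to 98.8%). A gene was counted where its level in endoTreg cells was at least 2-fold above, or at least 2-fold below, its level in Tconv cells on both days.

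The series holds 8 single-cell RNA libraries from macaques, titled as a study of Tregs given by adoptive transfer and made with a droplet-based 3′ kit. Blood mononuclear cells of each day had been frozen, were thawed on the same date, enriched for CD4+ cells with magnetic beads and sorted by flow cytometry. The endoTreg cells came from the gate CD3+CD4+ with high CD25 and low CD127, and the Tconv cells from the gate CD3+CD4+ with CD127 and without CD25. The labels name neither the animal, its age and sex, any drug it received nor the number of animals. What the 4 libraries share beyond this handling is therefore not known, and CFSE-labelled transferred cells were sorted into other libraries.

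Tregs restrain the responses of other T cells and depend on the transcription factor FOXP3. They carry much CD25, the alpha chain of the high-affinity interleukin-2 receptor, and little CD127, the alpha chain of the interleukin-7 receptor, which is why these surface proteins are used to sort them. Blood Tregs include naive cells and effector cells that have met antigen, and conventional CD4 cells likewise run through naive and memory cells to a cytotoxic kind that carries granzymes.

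Levels are counts of unique molecular identifiers (UMIs), summed over the cells of a class and day and scaled to a total of 1000000 UMIs in every class and day (CPM). Depth was 4413771 UMIs in endoTreg cells on day 3 and 2665517 on day 20, and 7321932 UMIs in Tconv cells on day 3 and 7982049 on day 20. The median cell held 3216 and 2551 UMIs in endoTreg cells on day 3 and day 20, against 2441 and 2185 UMIs in Tconv cells. Ribosomal protein genes took 37.8% and 36.8% of UMIs in endoTreg cells and 42.6% and 42.0% in Tconv cells. Among the 4 libraries, 74 of the cells used had a barcode that also occurred in another of them. Each sort and day is 1 library, so no value has a replicate and no test was made: intervals on CPM are exact Poisson intervals (95%), those on shares are exact binomial, and both cover counting error only. Fold changes are log2 ratios of CPM after adding 10 CPM, which understates the change of genes at a low level. The class names go with clusters of these same cells in the deposited cell table. The deposited gene table marks 3052 genes as used for ordering the cells, and all 60 genes counted below carry that mark, as do 699 of the 1837 genes tested (38.1%), so the differences describe the classes and are no independent evidence for them.

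The class names were first set against defining markers. FOXP3, the transcription factor that defines Tregs, stood at 160.2 CPM (149 to 172) on day 3 and 139.9 CPM (126 to 155) on day 20 in endoTreg cells, against 0.410 CPM (0.0845 to 1.20) and 0.251 CPM (0.0303 to 0.905) in Tconv cells. It was detected in 34.2% of endoTreg cells on day 3 (31.6 to 36.9%) and 26.7% on day 20 (23.8 to 29.6%), against 0.101% and 0.0552% of Tconv cells. After each cell was thinned to 1000 UMIs, which left out 4 Tconv cells of day 20, the FOXP3 shares were 13.5% and 12.5% of endoTreg cells and 0.0338% and 0.0553% of Tconv cells. Thus most endoTreg cells had no FOXP3 UMI, while FOXP3 was close to absent from Tconv cells on both days. IL2RA, which encodes CD25, was at 597 CPM (574 to 620.0) and 338 CPM (316 to 361) in endoTreg cells, against 5.19 CPM (3.67 to 7.12) and 5.26 CPM (3.79 to 7.11) in Tconv cells. IL7R, which encodes CD127, was at 145 CPM (134 to 157) and 216 CPM (198 to 234) in endoTreg cells, against 788 CPM (768 to 809) and 899 CPM (879 to 920.4) in Tconv cells. The gates had been set on these proteins, so neither difference is a finding. CD3D, a chain of the T cell receptor complex, was high in both classes, with 1941 and 1512 CPM in endoTreg cells and 1187 and 1239 CPM in Tconv cells. CD4 itself was recovered poorly, at 4.98 and 4.88 CPM in endoTreg cells and 7.24 and 3.76 CPM in Tconv cells, although the cells had been sorted on the protein.

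The minimum of 50 CPM in either class, required for each day, was met by 1837 genes, of which 40 (2.18%) exceeded their Tconv level by 2-fold or more in endoTreg cells on both days and 20 (1.09%) lay as far below it. Taken day by day, 72 of 1912 genes (3.77%) were higher and 65 (3.40%) lower on day 3, and 63 of 1966 genes (3.20%) were higher and 24 (1.22%) lower on day 20. The log2 ratio of the median gene was 0.19 on day 3 and 0.15 on day 20, so a typical gene sat slightly higher in endoTreg cells. When libraries were scaled by trimmed means (TMM), which moved that median by -0.10 on day 3 and -0.15 on day 20, 27 genes were higher and 22 lower. Median-of-ratios scaling also gave 27 higher and 22 lower, and scaling on the named genes left after those of ribosomes, mitochondria and hemoglobin were set aside gave 28 higher and 24 lower, with shifts of the median of -0.22 on day 3 and -0.12 on day 20. Of the 30 genes named for the size of their difference, 29 were still counted under each of these scalings, the exception being CD79B. Just inside the threshold, S100A6 had log2 ratios of 1.05 and 1.02 (day 3 and day 20), and NUCB2 had -1.02 and -1.53. Just outside it, UCP2 had 1.03 and 0.996, and LEF1 had -0.95 and -1.08.

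**Figure D1:**
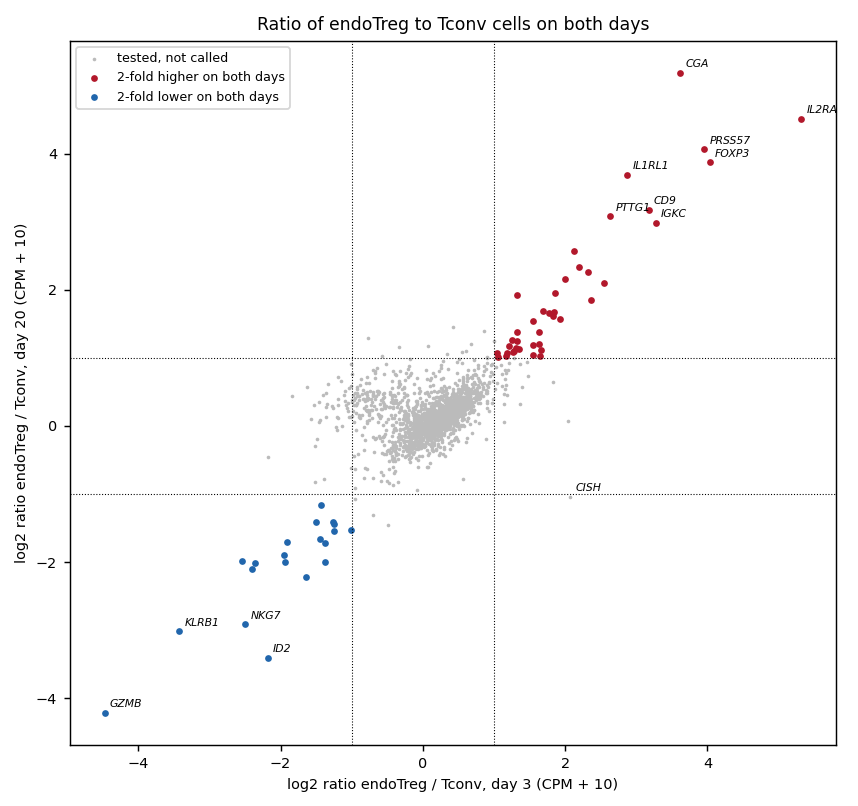
Log2 ratio of endoTreg to Tconv cells for each of the 1837 genes tested, with day 3 on the horizontal and day 20 on the vertical axis, and dotted lines at a 2-fold difference. The 40 genes higher on both days lie at the upper right and the 20 lower ones at the lower left, and CISH lies beyond the lines in opposite directions on the 2 days.

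Surface receptors known from Tregs were among the genes with the largest ratios of endoTreg to Tconv cells. CTLA4, an inhibitory receptor that competes for the co-stimulatory ligands CD80 and CD86, was at 83.4 CPM (75.1 to 92.3) and 88.2 CPM (77.3 to 100.2) in endoTreg cells, against 10.4 CPM (8.18 to 13.0) and 9.40 CPM (7.39 to 11.8) in Tconv cells. Its log2 ratios of 2.20 and 2.34 were close on both days. TNFRSF18 (GITR), a co-stimulatory receptor of the tumour necrosis factor receptor family, had 120.1 and 130.2 CPM in endoTreg cells and 25.8 and 26.2 CPM in Tconv cells (log2 ratios 1.86 and 1.95). TNFRSF1B, the second receptor for tumour necrosis factor, had 214 and 149.7 CPM in endoTreg cells and 33.6 and 34.2 CPM in Tconv cells (2.36 and 1.85). For these receptors, taken over the whole classes, the endoTreg value of the lower day was several times the Tconv value of the higher day. CTLA4, TNFRSF18 and TNFRSF1B, like IL1RL1 and CD9 below, were named for the size of their ratios on both days. The gap between the classes therefore follows largely from this choice. IL1RL1, the receptor for interleukin-33, was close to 0 in Tconv cells, with 80.4 CPM (72.3 to 89.2) and 141 CPM (128 to 156) in endoTreg cells, against 2.32 CPM (1.35 to 3.72) and 1.75 CPM (0.959 to 2.94) in Tconv cells. It was detected in 12.1% and 21.3% of endoTreg cells and in 0.574% and 0.387% of Tconv cells. CD9, a membrane protein of the tetraspanin family, had 171 and 176 CPM in endoTreg cells and 10.1 and 10.6 CPM in Tconv cells, with a log2 ratio of 3.17 on both days. Summed levels do not tell more cells with a gene from more RNA per cell, and for CD9 the share of cells with a UMI was also higher, at 37.3% and 35.5% of endoTreg cells and 2.40% and 2.18% of Tconv cells.

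The list of core Treg genes had 25 members, of which 21 were in the table, 13 reached 20 CPM in either class on each day, and 9 reached 50 CPM in the same way. Of these, 6 were counted higher and 0 lower, and the median log2 ratio of the 13 was 1.06 on day 3 and 1.40 on day 20, beside 0.14 and 0.13 over all 3658 genes at that level. The members that were not counted included IL2RB, a signalling chain shared by the receptors for interleukin-2 and interleukin-15, with 61.4 and 94.5 CPM in endoTreg cells and 29.5 and 29.7 CPM in Tconv cells (log2 ratios 0.85 and 1.40). IKZF4, a transcription factor of the Ikaros family, had 24.0 and 20.6 CPM in endoTreg cells and 6.28 and 7.52 CPM in Tconv cells. ICOS, a co-stimulatory receptor, differed little, with 42.4 and 71.7 CPM in endoTreg cells and 42.3 and 44.1 CPM in Tconv cells. IKZF4 on both days and ICOS on day 3 were under the 50 CPM minimum, so neither was tested. IKZF2 (Helios) and LRRC32, which presents latent transforming growth factor beta on Tregs, were also too low to be tested. IKZF2 stood at 9.74 and 7.13 CPM in endoTreg cells and 0.137 and 0.125 CPM in Tconv cells. LRRC32 stood at 4.53 and 0.750 CPM in endoTreg cells and at 0 in Tconv cells on both days.

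**Figure D2:**
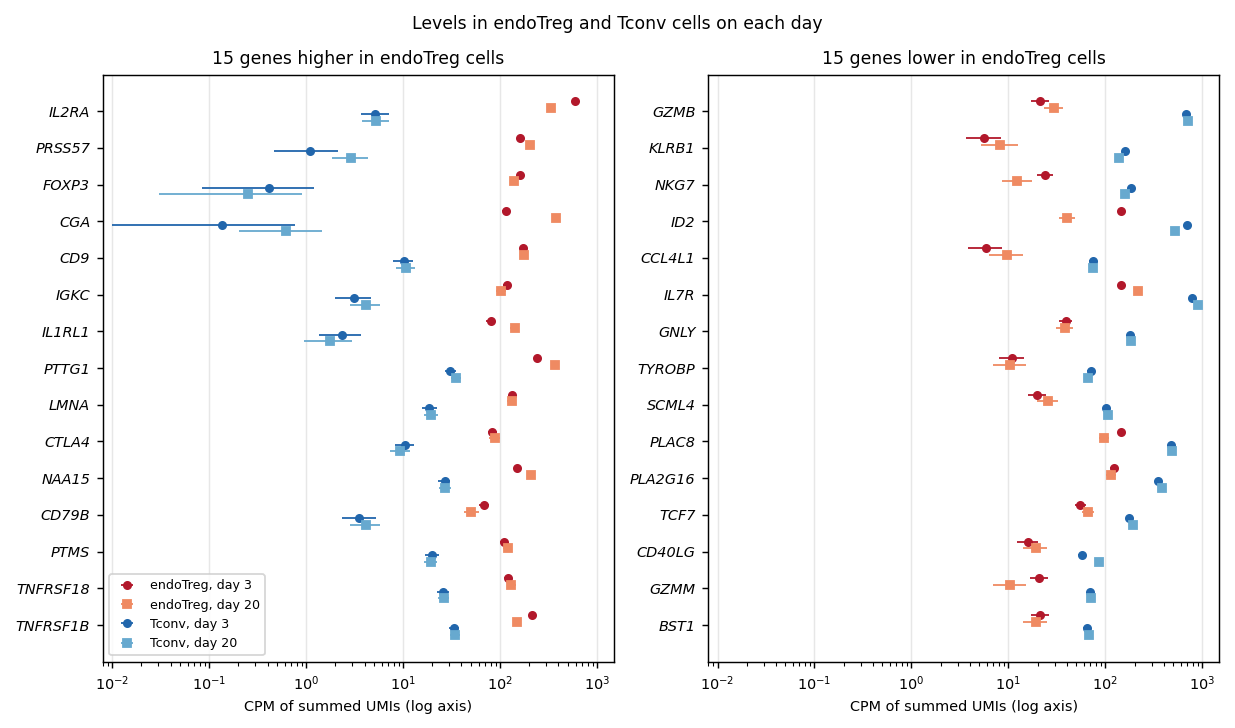
Levels of the 15 genes with the largest difference in each direction, in CPM on a log axis, in endoTreg cells (red and orange) and Tconv cells (blue), with day 3 as circles, day 20 as squares and 95% Poisson intervals drawn no lower than 0.01 CPM as lines. On both days IL2RA, FOXP3 and CTLA4 lie to the right in endoTreg cells, and GZMB, ID2 and IL7R lie to the right in Tconv cells.

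Several of the largest differences were in genes that are not on the core Treg list. PRSS57, a serine protease known from the granules of neutrophils, had 162 CPM (150.3 to 174) and 205 CPM (188 to 223) in endoTreg cells, against 1.09 CPM (0.472 to 2.15) and 2.88 CPM (1.83 to 4.32) in Tconv cells. CGA, the alpha subunit that the pituitary and placental glycoprotein hormones share, had 114 CPM (104 to 124) and 377 CPM (354 to 401) in endoTreg cells, against 0.137 CPM (0.00346 to 0.761) and 0.626 CPM (0.203 to 1.46) in Tconv cells. Both were rare by cell: PRSS57 had a UMI in 13.5% and 21.0% of endoTreg cells, and CGA in 11.2% and 26.3%, against at most 0.442% of Tconv cells for PRSS57 and 0.0552% for CGA on either day. The same cells often held both, since 98 of 176 PRSS57-positive endoTreg cells on day 3 (55.7%) and 147 of 197 on day 20 (74.6%) also had a CGA UMI, against 4.27% and 13.5% of the endoTreg cells without PRSS57. Cells with more UMIs are more likely to show any pair of genes. Both genes also came mostly from endoTreg cells to which the authors gave the finer name effector, 35.4% and 47.3% of the class. Those cells held 97.3% and 97.1% of the PRSS57 UMIs of the class and 95.4% and 97.5% of its CGA UMIs. The parts of depth and of this shared subset in the overlap were not tested. PTTG1 (securin), a regulator of the separation of sister chromatids, had 243 and 371 CPM in endoTreg cells and 30.7 and 34.95 CPM in Tconv cells. Of 23 proliferation genes, 22 were in the table, 5 reached 20 CPM and 0 were counted. All 5 had ratios above 0 on both days at the main scaling, as had 2383 and 2471 of the 3658 genes at 20 CPM. Their median log2 ratio was 0.72 on day 3 and 0.32 on day 20, beside 0.14 and 0.13 over those 3658 genes. In endoTreg cells to which the authors gave the finer name effector, and which held 84.9% and 88.2% of the PTTG1 UMIs of the class, all 5 were at least 2-fold above Tconv cells on day 3 (median 1.16) and 0 were on day 20 (median 0.78). Of the 3658 genes, 418 were at least 2-fold higher in these cells on day 3 (median 0.34) and 206 on day 20 (median 0.25). Among the 5 proliferation genes, STMN1, a regulator of microtubules, had a ratio of 1.14 for day 3 and 0.32 for day 20 on the log2 scale over the whole class. LMNA, which encodes lamins A and C of the nuclear envelope, had 133 and 132 CPM in endoTreg cells and 18.7 and 19.5 CPM in Tconv cells. NAA15, a subunit of an enzyme that acetylates protein amino termini, had 151 and 209.7 CPM in endoTreg cells and 26.8 and 27.2 CPM in Tconv cells. PTMS (parathymosin) had 109 and 120.1 CPM in endoTreg cells and 19.8 and 19.3 CPM in Tconv cells. PRSS57, CGA, PTTG1, LMNA, NAA15 and PTMS were named for the size of their ratios on both days. That their endoTreg values lay above the Tconv values, without overlap of counting intervals, therefore follows largely from this choice.

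B cell genes were also among the genes higher in endoTreg cells. IGKC, the constant region of the immunoglobulin kappa chain, had 117 and 102 CPM in endoTreg cells and 3.14 and 4.13 CPM in Tconv cells. CD79B, a signalling chain of the B cell receptor, had 68.9 and 50.6 CPM in endoTreg cells and 3.55 and 4.13 CPM in Tconv cells. The 4 B cell markers on the list summed to 109.9 and 93.8 CPM in endoTreg cells and 16.8 and 18.5 CPM in Tconv cells. Among them MS4A1 was at 8.16 and 9.004 CPM in endoTreg cells against 0.273 and 0.125 CPM in Tconv cells. The MS4A1 UMIs came from 6 endoTreg cells on each day, and from 2 Tconv cells on day 3 and 1 on day 20. Leaving out cells that resembled doublets (at least 3 UMIs of the markers of red cells, B cells, monocytes or platelets, or over 2 times the median UMIs of their library) removed 134 and 80 endoTreg cells and 79 and 67 Tconv cells. IGKC was then at 74.6 and 74.1 CPM in endoTreg cells and 3.15 and 3.75 CPM in Tconv cells. CD79B was at 48.1 and 36.8 CPM in endoTreg cells and 3.29 and 4.27 CPM in Tconv cells. MS4A1 had 0 UMIs in endoTreg cells on day 3. In that set CD79B fell short of the 50 CPM minimum and was no longer counted. The same step lowered DRA, an MHC class II chain outside the rule for named genes and singled out after its values were seen, to 32.1 and 29.7 CPM in endoTreg cells, against 8.31 and 12.9 CPM in Tconv cells. Over the full classes DRA had 54.8 and 59.7 CPM in endoTreg cells and 8.19 and 12.7 CPM in Tconv cells. The 6 monocyte markers summed to 53.2 and 72.0 CPM in endoTreg cells and 4.37 and 6.64 CPM in Tconv cells, but CST3 made up 46.2 and 61.2 CPM of the endoTreg sums, and S100A8 and S100A9 were at or near 0 in endoTreg cells. The part of stray B cells or of free RNA in the IGKC and CD79B levels was not tested.

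Among genes that were lower in endoTreg cells, those of cytotoxic cells were foremost. GZMB, the serine protease granzyme B of cytotoxic granules, had 21.3 CPM (17.2 to 26.1) and 29.3 CPM (23.1 to 36.5) in endoTreg cells, against 686 CPM (667 to 705) and 717 CPM (698 to 736) in Tconv cells. It had a UMI in 1.998% and 2.67% of endoTreg cells and in 21.2% and 18.6% of Tconv cells. KLRB1 (CD161), a lectin-like receptor of natural killer and memory T cells, had 5.66 and 8.25 CPM in endoTreg cells and 158 and 138 CPM in Tconv cells. NKG7, a protein of cytotoxic granule membranes, had 24.0 and 12.4 CPM in endoTreg cells and 182 and 159 CPM in Tconv cells. GNLY (granulysin), a protein that lyses microbes, had 39.0 and 37.9 CPM in endoTreg cells and 179 and 182 CPM in Tconv cells. The lower genes also took in GZMM, another granzyme, CCL4L1, a chemokine that counting cannot cleanly separate from its near-identical copy CCL4, and TYROBP, the adaptor DAP12 of activating receptors. Of 22 cytotoxic genes on the list, 18 were in the table and 8 reached 50 CPM, of which 7 were counted lower and 0 higher, and the 8 had a median log2 ratio of -2.18 on day 3 and -2.05 on day 20. The member not counted, CST7, had log2 ratios of -1.52 and -0.83. The cytotoxic list therefore lay far below the median of all genes on both days.

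For several of these genes most UMIs of the Tconv class came from a minority of its cells, those of the authors' cluster 5. This cluster held 549 Tconv cells on day 3, or 18.5% of the class (17.16 to 19.995%), and 612 on day 20, or 16.9% (15.7 to 18.2%), and its median cell held 1618 and 1522 UMIs. It supplied 97.2% and 98.0% of the GZMB UMIs of all Tconv cells, 95.8% and 94.1% of those of CCL4L1, 94.0% and 90.9% of those of NKG7, 86.9% and 84.9% of those of GNLY, and 85.1% and 83.3% of those of KLRB1. Its share was smaller for GZMM, at 54.3% and 50.3%, and for TYROBP, at 20.5% and 12.5%. Within it, GZMB reached 4962 and 5704 CPM, whereas the lowest of the other clusters of at least 50 cells had 16.9 and 12.6 CPM. Without cluster 5, 13 genes were lower on both days and 60 higher, and 10 of those 13 were among the 20 counted with it, while GZMB, KLRB1, NKG7, CCL4L1, GNLY and GZMM were no longer counted. Omission of cluster 6, the largest on both days, left 22 genes higher and 21 lower, and TYROBP and PLAC8 were no longer counted. Unlike GZMB, TYROBP was highest in cluster 6, at 119 and 121 CPM.

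ID2, IL7R and CD40LG were lower in endoTreg cells than in every Tconv cluster of at least 50 cells. ID2, an inhibitor of E-protein transcription factors, had 145 CPM (134 to 156) and 40.1 CPM (32.9 to 48.5) in endoTreg cells, against 692 CPM (673 to 711) and 522 CPM (506 to 538) in Tconv cells. Cluster 5 supplied 38.9% and 35.8% of its Tconv UMIs, and the lowest Tconv cluster still had 339 and 265 CPM, against 114 and 40.5 CPM in endoTreg cells with the finer name effector and 166 and 41.1 CPM in those named naive. ID2 was also the list of lineage transcription factors' one member counted, of 24 listed, 23 in the table and 4 that reached 50 CPM. ID3, a relative of ID2, ran the other way at a low level, with 26.7 and 71.7 CPM in endoTreg cells and 8.19 and 9.77 CPM in Tconv cells. CD40LG, the ligand with which helper T cells stimulate B cells, had 15.9 CPM (12.4 to 20.04) and 19.1 CPM (14.2 to 25.2) in endoTreg cells, against 57.1 CPM (51.7 to 62.8) and 85.7 CPM (79.4 to 92.4) in Tconv cells. CD69, an early activation marker that keeps cells in tissue, had 143 and 81.4 CPM in endoTreg cells and 355 and 258 CPM in Tconv cells. SCML4, a Polycomb-related gene, had 19.7 and 25.5 CPM in endoTreg cells and 101 and 106 CPM in Tconv cells. In all, 6 of the 20 lower genes (ID2, IL7R, TYROBP, SCML4, CD40LG and CD69) had both endoTreg subsets below every Tconv cluster of at least 50 cells on both days, as had 20 of the 1837 tested genes (1.09%). The margin was narrow for TYROBP on day 3, with 9.85 CPM in endoTreg cells named naive and 10.4 CPM in Tconv cluster 7. It was also narrow for CD69 on day 3, with 192 CPM in endoTreg cells named naive and 196 CPM in Tconv cluster 9.

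Genes of naive cells leaned lower in the endoTreg class as a whole, with 2 counted lower and 0 higher. Of all 1837 tested genes, 20 (1.09%) were counted lower and 40 (2.18%) higher. TCF7, a transcription factor of naive and stem-like T cells, had 55.1 and 66.4 CPM in endoTreg cells and 175 and 192 CPM in Tconv cells. It had 24.7 and 20.2 CPM in endoTreg cells with the finer name effector and 75.8 and 125 CPM in those named naive. LEF1, its close relative, missed the threshold on day 3, with 115 and 105 CPM in endoTreg cells and 232 and 232 CPM in Tconv cells. S1PR1, the receptor for egress from lymph nodes, was level, with 35.6 and 35.3 CPM in endoTreg cells and 37.1 and 36.0 CPM in Tconv cells. Of the 17 naive and quiescence genes listed, 16 were in the table, 13 reached 20 CPM and 7 reached 50 CPM, of which 2, TCF7 and IL7R, were counted lower and 0 higher. The gates had been set on the protein of IL7R. The median log2 ratio of the 13 was -0.18 on day 3 and -0.15 on day 20, beside 0.14 and 0.13 over all 3658 genes at 20 CPM. Of the 13, 2 were above 0 on day 3 and 4 on day 20, where 2383 and 2471 of the 3658 genes were. For cells named effector the medians were -0.42 and -0.36, beside 0.34 and 0.25 over all genes at 20 CPM. For those named naive they were -0.16 and 0.13, beside -0.04 and -0.10. PLAC8, PLA2G16 and BST1 completed the 15 lower genes with the largest difference, and PLAC8, a gene of myeloid and lymphoid cells, had 147 and 96.8 CPM in endoTreg cells and 479 and 485 CPM in Tconv cells. PLAC8 had 27.1 and 8.99 CPM in endoTreg cells named effector and 227 and 215 CPM in those named naive. The lowest Tconv cluster, cluster 9, had 92.4 and 92.8 CPM of PLAC8. PLA2G16, a phospholipase, had 122 and 114 CPM in endoTreg cells and 349 and 383 CPM in Tconv cells. BST1 (CD157), an enzyme of the cell surface, had 21.3 and 19.1 CPM in endoTreg cells and 64.9 and 67.7 CPM in Tconv cells. With the cells named naive in place of the whole endoTreg class, TCF7, PLA2G16 and BST1 were no longer counted.

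Of the memory and effector genes, 4 were counted higher in endoTreg cells and 1 lower. VIM, the intermediate filament vimentin, had 1818 CPM (1779 to 1858) and 1861 CPM (1809 to 1913) in endoTreg cells, against 759 CPM (739 to 779) and 767 CPM (748 to 786) in Tconv cells. ANXA2, a calcium-dependent membrane binding protein, had 753 and 669.7 CPM in endoTreg cells and 298 and 299 CPM in Tconv cells. LGALS3 (galectin-3), a carbohydrate-binding protein, had 291 and 316 CPM in endoTreg cells and 74.2 and 92.5 CPM in Tconv cells. ANXA1, a relative of ANXA2 known for restraining inflammation, ran the other way, with 232 and 249 CPM in endoTreg cells and 564 and 693 CPM in Tconv cells. Of the 21 memory and effector genes listed, 20 were in the table and reached 20 CPM, 16 reached 50 CPM, and the counted ones were S100A6, ANXA2, LGALS3 and VIM (higher) and ANXA1 (lower). The median log2 ratio of the 20 was 0.56 on day 3 and 0.71 on day 20. At the main scaling 16 of the 20 were above 0 on day 3 and 17 on day 20, where 2383 and 2471 of the 3658 genes at 20 CPM were. ITGB7, the beta chain of an integrin for homing to the gut, was the homing list's one member counted higher, with 232 and 229.6 CPM in endoTreg cells and 94.0 and 96.2 CPM in Tconv cells, and CD69 was its one member counted lower. ACTG1, a cytoplasmic actin, was the actin list's one member counted, of 19 that reached 50 CPM. ISG20, an exonuclease that interferon induces, was the interferon list's one, of 9 at that level. The actin list had a median log2 ratio of 0.53 on day 3 and 0.31 on day 20, with all 19 above 0 at the main scaling, and the interferon list 0.30 and 0.31. Over the 16 T cell receptor signalling genes at 20 CPM, 0 were counted and the medians were 0.07 and 0.16, close to the 0.14 and 0.13 of all genes.

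**Figure D3:**
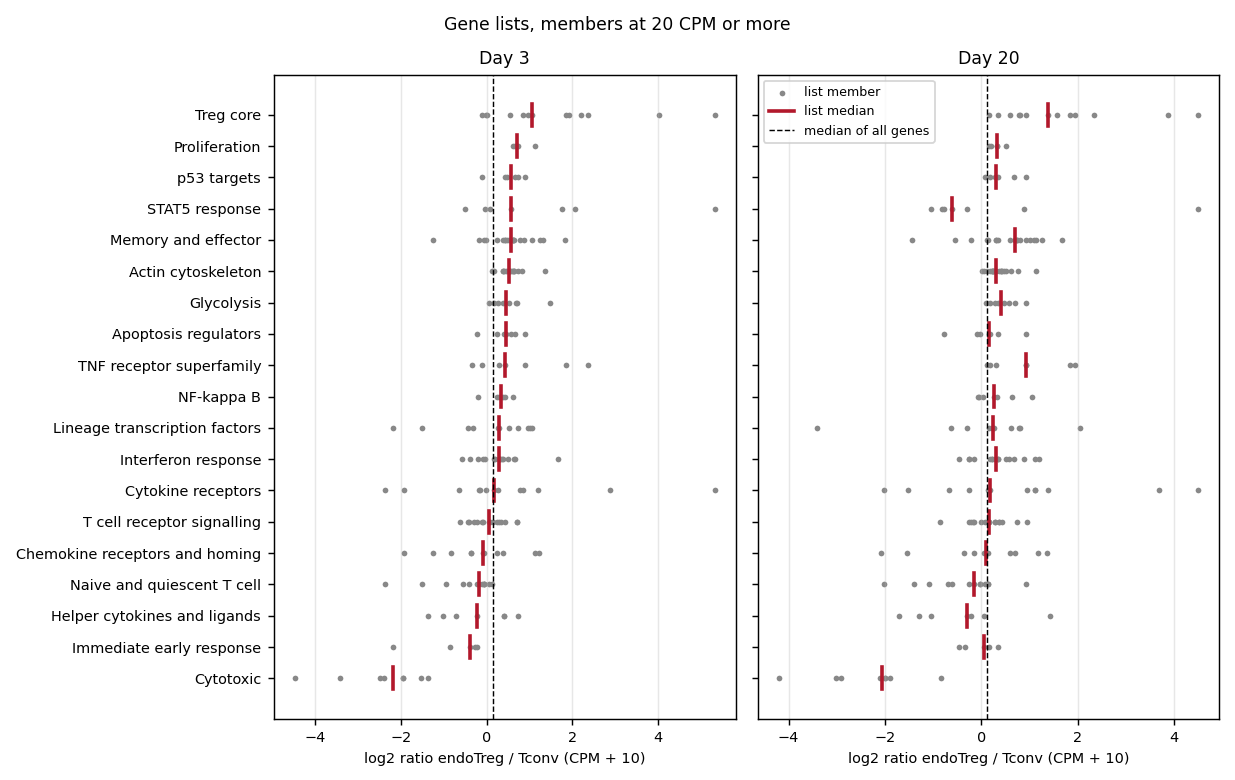
Log2 ratio of endoTreg to Tconv cells for the members of each gene list that reached 20 CPM (grey points), with the median of each list (red bars) and the median of all genes (dashed line), on day 3 and day 20. The core Treg list has medians of 1.06 and 1.40, the cytotoxic list has -2.18 and -2.05, and the STAT5 list lies above the dashed line on day 3 and below it on day 20.

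The endoTreg class was itself made of unlike cells. The authors' finer names put 461 endoTreg cells of day 3 (35.4%) and 444 of day 20 (47.3%) among effector Tregs, and 798 (61.3%) and 412 (43.9%) among naive Tregs, and the rest under further names, of which transferred naive Tregs held 13 cells on day 3 and 64 on day 20. Among the 40 genes higher in the class, 33 were at least 2-fold higher in effector-named than in naive-named cells on both days, where 8.00% of the 1837 tested genes were. PRSS57 stood at 419 and 397 CPM in effector-named cells and 4.17 and 0.874 CPM in naive-named cells. CGA stood at 289 and 734 CPM in effector-named and 3.79 and 14.9 CPM in naive-named cells. IL1RL1 had 194 and 264 CPM in effector-named cells and 7.96 and 10.5 CPM in naive-named cells. Over Tconv cells, the naive-named cells had log2 ratios of 0.35 and -0.24 for PRSS57, 0.44 and 1.23 for CGA and 0.54 and 0.80 for IL1RL1, so CGA was more than 2-fold higher in them on day 20. FOXP3 was more even, with 235 and 203 CPM in effector-named cells and 110.3 and 64.7 CPM in naive-named cells. IL2RA was similar, with 766 and 387 CPM in effector-named cells and 492 and 281 CPM in naive-named cells. The highest Tconv cluster had 0.799 and 1.02 CPM of FOXP3 and 16.2 and 10.5 CPM of IL2RA. CTLA4 had 138 and 136 CPM in effector-named cells and 50.8 and 38.5 CPM in naive-named cells, and the highest Tconv cluster had 23.1 and 15.8 CPM. Altogether 10 of the 40 higher genes, among them FOXP3, IL2RA, CTLA4, CD9, CGA, IL1RL1, NAA15, CD79B and GIPC2, had both endoTreg subsets above every Tconv cluster of at least 50 cells on both days, as had 31 of the 1837 tested genes (1.69%). LMNA was not among them, and Tconv cluster 9 had 162 and 147 CPM, more than the 20.1 and 16.6 CPM of naive-named endoTreg cells. TNFRSF18 was likewise high in Tconv cluster 5, with 78.3 and 64.1 CPM. That cluster also supplied 60.2% and 64.8% of the Tconv UMIs of TNFRSF1B. It had 150 and 180 CPM of TNFRSF1B, against 132 and 71.7 CPM in naive-named endoTreg cells. The memory and effector list split along the same line, with medians of 1.37 and 1.18 for effector-named cells over Tconv cells and -0.22 and -0.38 for naive-named cells over Tconv cells. The cytotoxic list was low in both subsets, with medians of -1.70 and -1.86 for effector-named and -3.35 and -3.40 for naive-named cells. With effector-named cells in place of the whole class 130 genes were higher on both days, and with naive-named cells 5 were.

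**Figure D4:**
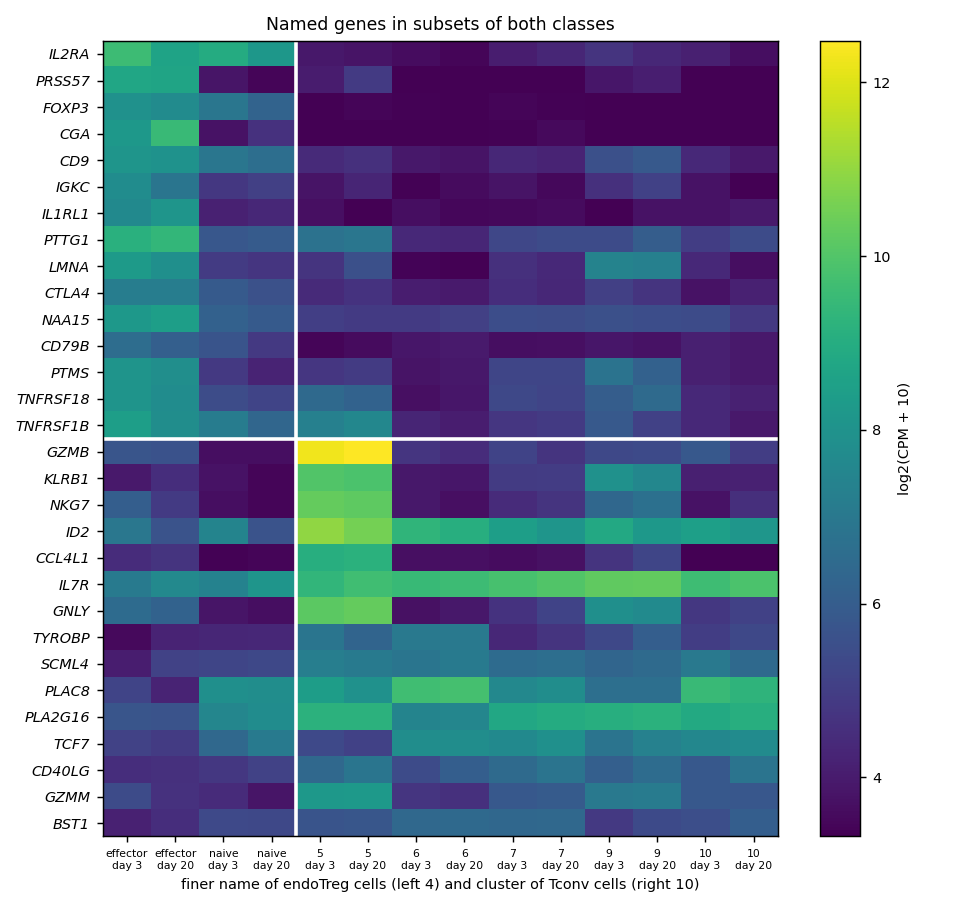
Level of the 30 named genes as log2(CPM + 10) (colour) in effector-named and naive-named endoTreg cells (the 4 columns on the left) and in the Tconv clusters of at least 50 cells (the 10 columns on the right), by day. PRSS57, CGA and IL1RL1 are high in effector-named cells alone among these columns, and GZMB, NKG7 and GNLY are highest in Tconv cluster 5.

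The classes compared also differ by sort and library, so the Tconv cells that fell into the CD25high CD127low sort, 2037 on day 3 and 1356 on day 20, were set beside them. Those cells share a library and a gate with the endoTreg cells, and both comparisons use the same endoTreg cells, so their values are given side by side only. FOXP3 was at 160.2 and 139.9 CPM in endoTreg cells, against 17.5 and 16.9 CPM in Tconv cells of the same library, where the CD25-negative sort had 0.410 and 0.251 CPM. IL2RA was at 122 and 121 CPM in the Tconv cells of the same library, so its log2 ratio there was 2.20 and 1.41 in place of 5.32 and 4.51. PRSS57, CGA, IL1RL1 and PTTG1 had ratios of similar size within the library, with log2 values of 3.71 and 3.97 for PRSS57, 3.22 and 4.74 for CGA, 2.70 and 3.08 for IL1RL1 and 2.67 and 3.23 for PTTG1. LMNA did not, and the Tconv cells of the same library had 104 and 127 CPM, close to the 133 and 132 CPM of endoTreg cells (log2 ratios 0.32 and 0.05). S100A6 was level within the library, with 1162 and 1122 CPM in endoTreg cells and 1192 and 1189 CPM in its Tconv cells. The cytotoxic genes were low in the whole library: GZMB had 21.3 and 29.3 CPM in endoTreg cells and 25.8 and 59.2 CPM in its Tconv cells. NKG7 had 24.0 and 12.4 CPM in endoTreg cells and 10.4 and 14.3 CPM in its Tconv cells. ID2 on day 3 was also level within the library, at 145 CPM in endoTreg cells and 141 CPM in its Tconv cells. On day 20 ID2 was at 40.1 CPM in endoTreg cells and 73.2 CPM in its Tconv cells. KLRB1, unlike GZMB and NKG7, stayed more than 2-fold lower in endoTreg cells within the library, with log2 ratios of -1.36 and -1.41. It had 5.66 and 8.25 CPM in endoTreg cells and 30.1 and 38.6 CPM in the library's Tconv cells, all under the 50 CPM minimum. IL7R, CD40LG, TCF7 and PLA2G16 were also lower in endoTreg cells within the library, with log2 ratios of -1.94 and -1.52 for IL7R, -1.19 and -1.52 for CD40LG, -1.35 and -1.05 for TCF7 and -1.64 and -1.73 for PLA2G16. For the genes whose difference shrank within the library, the sort, the library and the makeup of the Tconv class cannot be told apart.

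**Figure D5:**
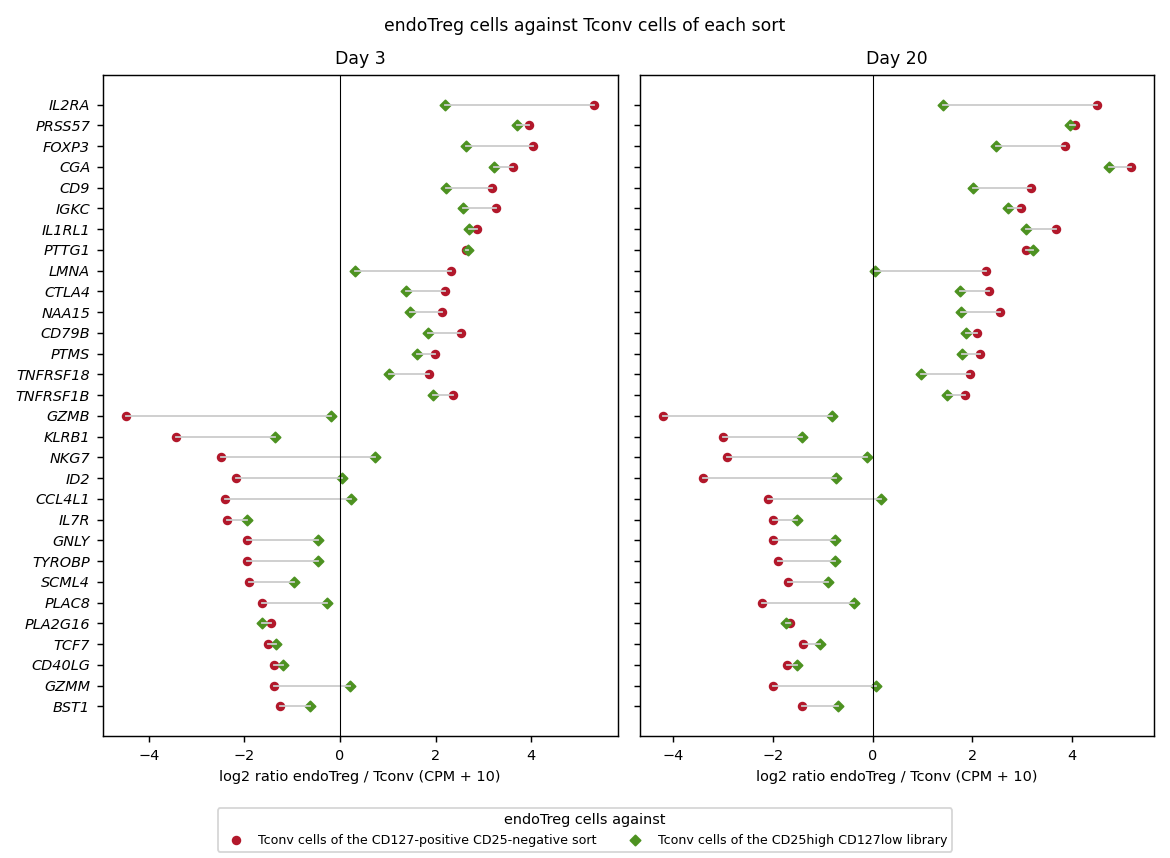
Log2 ratio of endoTreg cells to Tconv cells of the CD127-positive CD25-negative sort (red circles) and to Tconv cells of the CD25high CD127low library (green diamonds) for the 30 named genes, on day 3 and day 20. The paired points lie close together for PRSS57, CGA, PTTG1 and IL7R and far apart for LMNA, GZMB, NKG7 and ID2.

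Some genes differed by 2-fold on a single day. Of the 62 genes tested on both days that were lower in endoTreg cells on day 3, 34 were not lower on day 20, and 30 of those 34 have no gene name and 2 are ribosomal protein genes. HBB, a hemoglobin chain of red cells, was also uneven on day 3, at 38.7 CPM in endoTreg cells and 325 CPM in Tconv cells, and was at 0.375 and 0.125 CPM in endoTreg and Tconv cells on day 20. Without the doublet-like cells, which were marked in part by red cell genes, HBB on day 3 was at 37.2 CPM in endoTreg cells and 42.1 CPM in Tconv cells. CISH, a feedback inhibitor that STAT5 induces, was the one tested gene with a 2-fold difference in opposite directions on the 2 days. On day 20 endoTreg cells had 37.9 CPM (30.9 to 46.0) of CISH, against 88.3 CPM (81.9 to 95.1) in Tconv cells. On day 3 endoTreg cells had 301 CPM (285 to 318), against 64.5 CPM (58.8 to 70.6) in Tconv cells. BCL2, a survival gene of the same STAT5 list, gave log2 values of 0.57 for day 3 and -0.78 for day 20, and CCND2, a cyclin, had 1.76 and 0.89. Of the 14 STAT5 response genes listed, 12 were in the table and 7 reached 20 CPM, with IL2RA alone counted, and their median log2 ratio was 0.57 on day 3 and -0.60 on day 20.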

How the data were processed

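Single-cell RNA libraries of sorted macaque CD4 T cells were processed with Cell Ranger 2.1.1, per the submitters' processing notes. The authors deposited 1 table of UMI counts (16429 genes by 25397 cells, not normalized) with a table of cells that gives the sort, day, class, cluster and finer name. Neither the genome build nor the way the authors drew the classes is given in the sources used here. Of 3130 identifiers without a symbol in the deposited table, 309 were named from the reference gene table.

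Counts were summed per class and day and scaled to CPM by total UMIs. A gene was tested where it reached 50 CPM in either class on each day, and counted where its log2 ratio, with 10 CPM added, showed at least a 2-fold difference the same way on both days. With 1 library per sort and day no p-value was computed. Named genes were the 15 per direction with the largest smaller difference of both days (without unnamed, mitochondrial and ribosomal genes), FOXP3, IL2RA, IL7R, members of the 30 gene lists (489 entries, 417 in the table) and genes counted in opposite directions. The members and lists were chosen with earlier results of these data known. Shares of cells were also computed after thinning each cell to 1000 UMIs. The marks for doublets were made here from marker UMIs and depth, with no doublet caller. TMM factors came from edgeR 4.0.16 and median-of-ratios factors from DESeq2 1.42.0, used for scaling alone, with R 4.3.3, Python 3.11.15, numpy 2.4.6, scipy 1.17.1, pandas 2.3.3 and matplotlib 3.10.9. The counting steps were tested on simulated data. Some genes, a counted one among them, are not reported here.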

Additional observations from a re-analysis of the deposited data

Results flagged for a closer look

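CISH was marked because its ratio of endoTreg to Tconv cells ran in opposite directions on the 2 days, with a log2 ratio of -1.04 on day 20 and 2.06 on day 3. Its level was 37.9 CPM in endoTreg cells against 88.3 CPM in Tconv cells on day 20, and 301 CPM in endoTreg cells against 64.5 CPM in Tconv cells on day 3. The difference between the days was not tested, since each sort and day is 1 library.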

How the results depend on the processing

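With 1 library per sort and day, no value shows how libraries vary, and depth limits genes under about 50 CPM most. No paired analysis was possible because the libraries carry no replicate numbers, and leaving out a replicate was not possible for the same reason. Beside the main 40 genes higher and 20 lower in endoTreg cells on both days, no filter on expression gave 70 higher, a filter of 20 CPM 62 higher, a 1.5-fold limit 101 higher and 33 lower and a 3-fold limit 19 higher and 11 lower. Counted over all cells of both sorts, 13 were higher and 12 lower. With Tconv cells of the CD25high CD127low library 19 were higher and 7 lower, of which 18 and 4 were shared with the main result. Alternatives chosen after seeing the data gave 130 higher with effector-named endoTreg cells alone, 5 higher with naive-named cells alone, 13 lower without Tconv cluster 5 and 22 higher without Tconv cluster 6. The other counts stayed within 1.5 times the main ones, including both other pseudocounts (1 and 30 CPM), per-cell means, thinned cells, equal weight for each Tconv cluster, and the omission of doublet-like cells. Some log2 ratios of genes named by the rule changed sign. Within the CD25high CD127low library they were NKG7 on day 3 (0.74), ID2 on day 3 (0.034), CCL4L1 (0.24 on day 3 and 0.16 on day 20), GZMM (0.20 and 0.071) and S100A6 (-0.037 and -0.082). With naive-named cells alone they were PTMS (-0.061 on day 3 and -0.64 on day 20) and, on day 20, PRSS57 (-0.24), LMNA (-0.15), LGALS3 (-0.30), VIM (-0.34), ANXA2 (-0.33) and S100A6 (-0.11). Further counted genes also changed sign with naive-named cells, among them DRA (-0.29 and -0.57) and, on day 20, DBI (-0.28). Without Tconv cluster 5 they were GZMB on day 20 (0.59), NKG7 on day 3 (0.59), CCL4L1 (0.22 and 0.40) and GNLY (0.40 and 0.21). These alternatives change which cells are compared, and the cause of each change was not tested.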

Other observations

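Further genes that were at least 2-fold higher in endoTreg cells on both days lay outside the rule for named genes and were singled out after their values were seen. RGS1, a regulator of G protein signalling that dampens chemokine responses, had 259 and 128 CPM in endoTreg cells and 68.6 and 33.6 CPM in Tconv cells. Unlike most of the higher genes, RGS1 was not higher in effector-named than in naive-named endoTreg cells, with 230.3 and 71.9 CPM in effector-named cells and 282 and 198 CPM in naive-named cells. DPEP2, a membrane dipeptidase, had 241 and 238 CPM in endoTreg cells and 68.0 and 67.03 CPM in Tconv cells, while the Tconv cells of the CD25high CD127low library had 151 and 180.0 CPM. SAMSN1, an adaptor protein of lymphocytes, had 106 and 101 CPM in endoTreg cells and 36.2 and 37.0 CPM in Tconv cells, while the Tconv cells of the CD25high CD127low library had 78.0 and 92.8 CPM. CLDND1, a membrane protein with a claudin domain, had 56.4 and 101 CPM in endoTreg cells and 16.7 and 19.3 CPM in Tconv cells. DBI, an acyl-CoA binding protein, had 658 and 519.6 CPM in endoTreg cells and 205 and 219 CPM in Tconv cells. SAMHD1, an enzyme that breaks down deoxynucleotides, had 62.8 and 72.0 CPM in endoTreg cells and 19.0 and 21.5 CPM in Tconv cells.

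TGFBR3, an accessory receptor for transforming growth factor beta, had 2.95 and 3.75 CPM in endoTreg cells and 39.3 and 29.6 CPM in Tconv cells, below the 50 CPM minimum. The authors' Tconv cluster 5 supplied 77.8% and 80.9% of its Tconv UMIs. TGFBR2, a signalling receptor for the same factor, differed by less than 2-fold, with 20.8 and 23.6 CPM in endoTreg cells and 38.0 and 43.3 CPM in Tconv cells. CX3CR1, the fractalkine receptor of cytotoxic T cells, also missed the minimum, with 0.227 and 0.375 CPM in endoTreg cells and 29.0 and 34.0 CPM in Tconv cells, of whose UMIs cluster 5 supplied 98.1% and 98.2%. HOPX, a transcription cofactor of effector T cells, had 46.4 and 117 CPM in endoTreg cells and 151 and 146 CPM in Tconv cells, so it was 2-fold lower on day 3 alone. FUT7, which makes the ligand for selectins, had 21.3 and 26.6 CPM in endoTreg cells and 4.23 and 4.26 CPM in Tconv cells. The Tconv cells of the CD25high CD127low library had 20.003 and 21.9 CPM of FUT7, close to the endoTreg levels. IL18R1, a receptor chain for interleukin-18, had 25.4 and 24.0 CPM in endoTreg cells and 5.46 and 5.76 CPM in Tconv cells.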
